A study of Mus musculus with 8 samples.

Results

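The genes described here were the 7 globin genes and Bcl11a that the gene table of mouse liver lists under these symbols, 8 of 22059 genes. They were chosen by symbol, not by their values. Hba-a1 and Hba-a2 encode the adult-type alpha chains of haemoglobin and Hba-x the embryonic zeta chain, which makes 3 alpha-globin genes. Hbb-b1 and Hbb-b2 encode the adult-type beta chains, and Hbb-y (epsilon y) and Hbb-bh1 (beta h1) the embryonic ones, which makes 4 beta-globin genes. Bcl11a encodes a zinc-finger transcription factor that is known to repress embryonic-type globin genes in definitive red-cell precursors.

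The data were RNA-seq libraries of whole liver from wild-type mice of the inbred strain FVB (FVB/NJ in the Methods) at embryonic day 18 (E18), postnatal day 14 (P14), postnatal day 28 (P28) and in adults of 3 months, with 2 libraries per stage. No transgene or treatment is named for any stage, and whether livers were pooled is not given in the sources used here. The Methods name males for the adult livers used for RNA and give no sex for the other stages of this series. The study calls the duplicates biological, whereas the labels do not tie them to separate animals or litters, so p-values measure the spread between these libraries, part of which may be technical. In whole liver, fewer red-cell precursors and less globin RNA per cell cannot be told apart.

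Between 68154675 and 106055723 reads per library were counted on genes. Levels are given as CPM, the count relative to the library total after TMM scaling, which corrects for unequal composition. Levels compared between genes are given as RPKM, the count relative to mapped reads and transcript length, without TMM scaling. The hepatocyte markers Alb, Apoa1, Ttr, Hnf4a, Cps1, Serpina1a, Tat and Cyp2e1 summed to between 42500 and 212000 CPM, with none at 0 at any stage. Over all 17081 genes tested, the median log2 change from E18 to P14 was -0.03 with TMM scaling and -0.9 with library size alone, and from E18 to adult it was -0.11 and -0.95.

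Haemoglobin is a tetramer of alpha-type and beta-type chains, each holding a haem group. In the mouse, red cells of the yolk sac use the embryonic chains, and red cells that arise in the fetal liver use the adult-type chains. The fetal liver is the main site of red-cell formation before birth, a role that bone marrow and spleen take over afterwards.

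The promoters of the alpha-globin genes and of Hbb-y are shown because these genes moved together over the stages while 2 of them encode embryonic chains. Sequences are from RefSeq on build GRCm38.p6 (5 of the 8 genes matched by symbol), whereas the deposited values rest on mm9 and carry no coordinates. Each line gives the 120 bases before the annotated start. Capitals mark CACCC, the motif of the red-cell activator Klf1, and TGACCA, the motif known for Bcl11a, each searched on both strands.
Hba-a1 (chr11:32283552-32283671, plus strand): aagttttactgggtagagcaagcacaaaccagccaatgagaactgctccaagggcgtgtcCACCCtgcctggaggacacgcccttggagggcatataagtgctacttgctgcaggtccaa
Hba-a2 (chr11:32296372-32296491, plus strand): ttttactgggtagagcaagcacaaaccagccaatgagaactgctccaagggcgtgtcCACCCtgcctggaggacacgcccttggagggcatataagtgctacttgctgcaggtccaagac
Hba-x (chr11:32276480-32276599, plus strand): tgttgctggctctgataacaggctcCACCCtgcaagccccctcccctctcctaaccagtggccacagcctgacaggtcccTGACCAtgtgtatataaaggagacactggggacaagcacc
Hbb-y (chr7:103853208-103853327, minus strand): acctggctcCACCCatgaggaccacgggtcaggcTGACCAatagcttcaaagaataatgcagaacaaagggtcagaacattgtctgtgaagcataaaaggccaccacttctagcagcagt

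All 4 stretches held CACCC once. TGACCA stood in Hba-x, starting at position -40 from the start, and in Hbb-y, starting at -86, where it overlapped the box CCAAT at -83. Neither Hba-a1 nor Hba-a2 held TGACCA in these 120 bases. Of 32851 RefSeq promoters searched over the same length, 31.7% held CACCC and 5.6% held TGACCA. The windows of Hba-a1 and Hba-a2, which run from 250 bases before to 50 bases after the start, were identical over 297 bases once shifted by 3.

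The coding sequences of Hba-a1 and Hba-a2 were 429 bases long in GENCODE M21 and differed at 1 position, C381T, counted from 1 at the A of the start codon with the base of Hba-a1 first. The base lies in the coding part of exon 3 of 3, and it is capitalised in the coding bases 351 to 411 of each gene (build GRCm38), shown because near-identity bears on how reads could be assigned.
Hba-a1 (chr11:32284313-32284373, plus strand): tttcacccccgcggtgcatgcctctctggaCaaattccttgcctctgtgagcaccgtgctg
Hba-a2 (chr11:32297130-32297190, plus strand): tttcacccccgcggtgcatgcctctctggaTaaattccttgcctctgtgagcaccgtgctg

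The adult-type genes were abundant at E18. Hba-a1 had 176482 and 191142 reads in the E18 libraries, then 1362 and 1037 in those of P14, 685 and 540 in those of P28 and 294 and 348 in those of adults. For Hbb-b1 the E18 libraries held 272039 and 313355 reads, those of P14 2109 and 1740, those of P28 1382 and 999 and those of adults 531 and 710. For both genes, each E18 library lay far above every later one, and the libraries of neighbouring stages did not overlap in CPM.

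Hba-a1 stood at 1417 ± 205 CPM (SD, n = 2) at E18 and at 13.2 ± 2.28 at P14, 107-fold lower (log2 fold change -6.74 ± 0.19 SE, edgeR quasi-likelihood test, Benjamini-Hochberg adjusted p = 1.1e-08). Hbb-b1 went from 2260 ± 425 to 21.3 ± 2.46 CPM, 106-fold lower (-6.73 ± 0.21, edgeR adjusted p = 1.8e-08). With library size alone, the log2 change of both was -7.6. Most of the decline between E18 and adult thus lay in this first interval. By adult, Hba-a1 was 275-fold and Hbb-b1 228-fold below E18, with edgeR adjusted p = 3.2e-09 and 5.8e-09.

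Later steps were small. From P14 to P28, Hba-a1 changed by -0.72 ± 0.15 (log2, edgeR adjusted p = 0.005) and Hbb-b1 by -0.44 ± 0.17 (edgeR adjusted p = 0.061). From P28 to adult, the log2 changes were -0.65 ± 0.16 and -0.66 ± 0.17, with edgeR adjusted p of 0.028 and 0.037. None of these 4 changes reached the 3-fold that a call requires besides a false discovery rate below 0.1. The order of levels was E18, P14, P28 and adult for both genes, each neighbour differing at a false discovery rate below 0.1 with all libraries. The steps after P14 were less firm. Hbb-b1 from P14 to P28 had an edgeR adjusted p of 0.29 without P14 replicate 1 and 0.31 without P28 replicate 2. From P28 to adult, Hba-a1 had 0.17 without P28 replicate 1, 0.14 without adult replicate 1 and 0.11 without adult replicate 2, and Hbb-b1 had 0.23 and 0.2 without the first and second of these libraries.

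**Figure D1:**
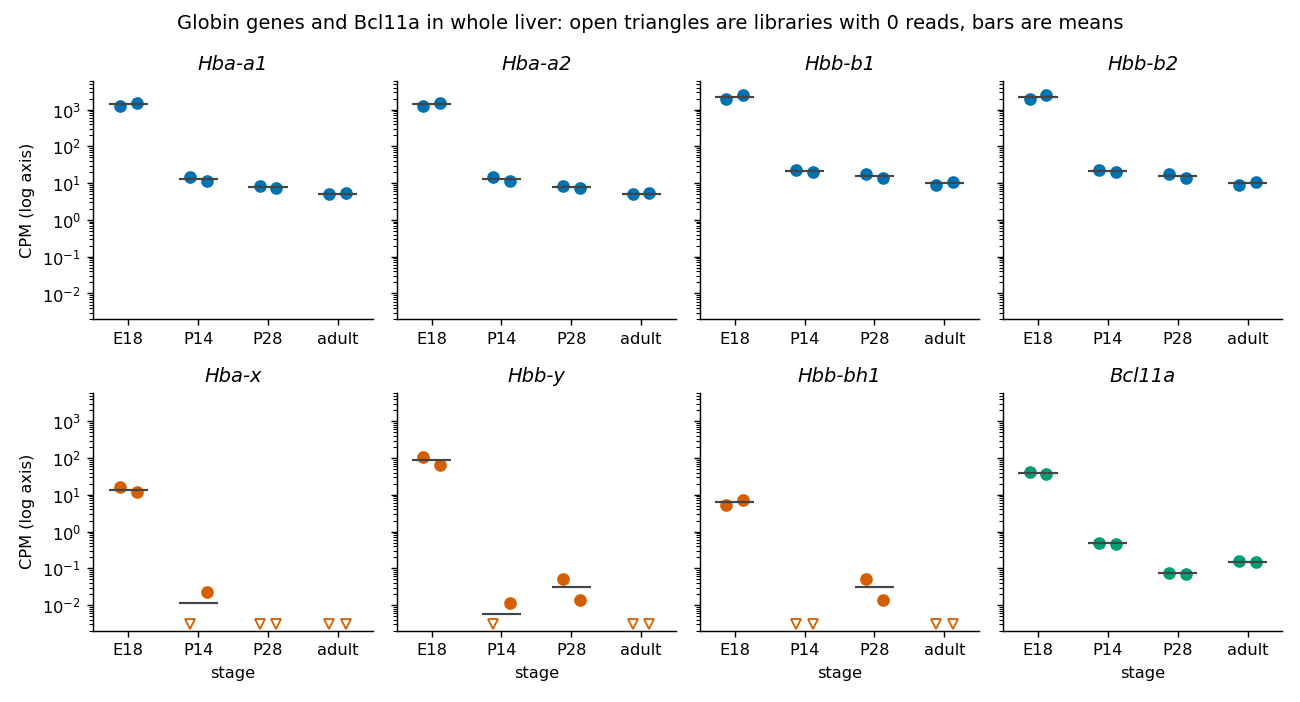
CPM (TMM-scaled, log axis) of the 8 genes at the 4 stages, with 1 point per library, bars at the means and open triangles at the lower edge for libraries with 0 reads. The adult-type genes (blue) drop from above 1000 to between 5 and 23 CPM, whereas the embryonic genes (orange) drop to between 0 and 4 reads per library and Bcl11a (green) to below 1.

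Across the comparisons from E18, all 8 genes passed both thresholds and fell, 8 of 8 from E18 to P14 and 8 of 8 from E18 to adult. Of all genes tested, 29.2% were called from E18 to P14, 13.8% as higher and 15.4% as lower. From E18 to adult, 40.5% were called, 16.8% as higher and 23.8% as lower. Hba-x, Hbb-y and Hbb-bh1 passed the filter on low counts only through their E18 libraries, so a difference from E18 was bound to follow for them. From P14 to P28, 2 of 8 were called, Bcl11a as lower and Hbb-bh1 as higher, against 9.59% of all genes (3.61% higher, 5.98% lower). From P28 to adult, 0 of 8 were called, against 3% of all genes (0.767% higher, 2.24% lower). At an unadjusted p below 0.05, edgeR gave 6 of 8 in that last step, of which 4 were the adult-type genes of the 2 near-identical pairs, against 29% of all genes, and DESeq2 and limma also called 0.

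The counts of the adult-type pairs were nearly equal in every library. Hba-a2 had 176474 and 191134 reads at E18, at most 8 fewer than Hba-a1, and the same count as Hba-a1 in all 6 later libraries. Hbb-b2 had 272035 and 313349 reads at E18, at most 6 fewer than Hbb-b1, and again the same count in all 6 later libraries. The share of Hba-a1 in the pair was therefore 50% in every library, and so was that of Hbb-b1. At the lowest depth, in adult replicate 1, the 95% Wilson interval of this share ran from 46% to 54% for Hba-a1, and intervals here cover counting error only.

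Equal counts were not the rule for globin pairs. Hbq1a and Hbq1b, 2 theta-type genes of the alpha-globin cluster, had 278 and 29454 reads in E18 replicate 1 and 319 and 36632 in E18 replicate 2, and were equal in 0 of 8 libraries. Of the stretches of 100 bases (the read length) in the GENCODE transcript of Hba-a1, 56.5% also stood in that of Hba-a2, and 74.5% the other way round. For Hbq1a and Hbq1b these shares were 24.4% and 26.6%. Transcripts listed as Hbb-bs and Hbb-bt, the adult beta-globin genes of that annotation, shared 62.6% and 54.8%, but the symbols Hbb-b1 and Hbb-b2 could not be matched to them by name.

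How reads that match both genes of a pair were counted is not given in the sources used here. Reads placed on both genes and reads split between them cannot be told apart from these counts, so Hba-a1 and Hba-a2, like Hbb-b1 and Hbb-b2, are each best read as 1 measurement. At P28, Hbb-y, Hbb-bh1 and the beta-globin gene Hbb-bh2 also had the same low counts, 4 and 1 reads each, although their GENCODE transcripts shared no stretch of 100 bases.

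**Figure D2:**
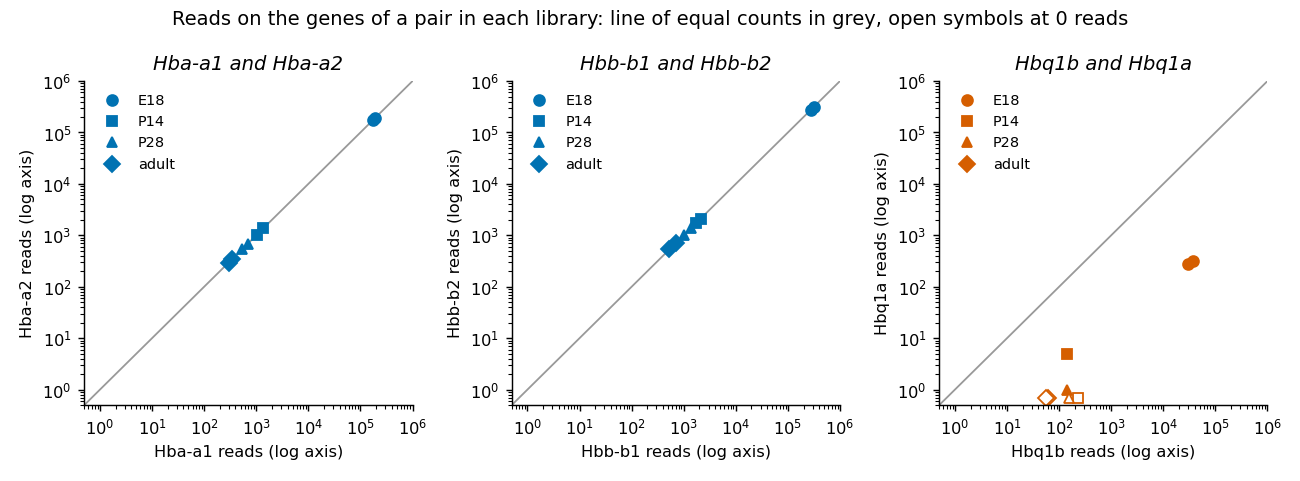
Reads of the second gene against the first of each pair (both log axes), with 1 symbol per library, the stage by symbol shape, open symbols at 0 reads and the line of equal counts in grey. Hba-a1 and Hba-a2 and Hbb-b1 and Hbb-b2 lie on the line in all 8 libraries, and Hbq1a lies below it, by up to 36313 reads.

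The embryonic genes were present at E18 and nearly absent afterwards. Hbb-y had 14873 and 8049 reads in the E18 libraries, 0 and 1 in those of P14, 4 and 1 in those of P28 and 0 and 0 in those of adults. Hba-x had 2210 and 1422 reads at E18, 0 and 2 at P14, and 0 in all 4 libraries of P28 and adult. Hbb-bh1 had 712 and 907 reads at E18, none in either P14 library, 4 and 1 in those of P28 and none in either adult library. For each gene, both E18 libraries lay far above every later one.

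With 3 reads per library as the smallest value that this depth can show, Hbb-y was at least 1790-fold lower in adult than at E18 (86.5 ± 29.3 CPM, SD, n = 2). Hba-x was at least 285-fold lower than its E18 level of 13.8 ± 3.04, and Hbb-bh1 at least 130-fold lower than 6.27 ± 1.61. The edgeR adjusted p of the fitted E18 to adult changes were 8.5e-08, 1.1e-06 and 2.9e-06. They add no support, since these genes passed the filter on low counts only through their E18 libraries. These bounds are set by the reads at E18, so their order says nothing about which gene fell further.

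The single call of a higher level was Hbb-bh1 from P14 to P28 (edgeR adjusted p = 0.062). It rested on 0 and 0 reads against 4 and 1, too few for a fold change. It was lost without P14 replicate 1 (edgeR adjusted p = 0.15), without P14 replicate 2 (0.16) and without P28 replicate 1 (0.25).

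Among embryonic and adult-type genes at E18, levels per length ordered as Hbb-b2 at 5421 ± 926 RPKM (SD, n = 2) and Hbb-b1 at 5283 ± 903, ranks 8 and 9 of all genes, then Hba-a1 at 1855 ± 237 and Hba-a2 at 1841 ± 235, ranks 20 and 21. Hbb-y followed at 205.3 ± 72.8 RPKM, Hba-x at 33.7 ± 8.01, Hbb-bh1 at 15.03 ± 3.62 and Bcl11a at 8.344 ± 1.01. The neighbours within each pair differed by less than the spread between duplicates. Their counts were nearly equal, so their order comes from the lengths used, 626 bases for Hbb-b1 and 610 for Hbb-b2. For Hba-a1, Hba-a2 and Hba-x, the lengths used were 1118, 1126 and 600 bases, against 699, 554 and 801 in GENCODE, which shifts their RPKM. In adult, Hbb-b1 stood at 12.68 ± 1.68 and Hba-a1 at 3.683 ± 0.172 RPKM, and the 3 embryonic genes were at 0.

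The duplicates at E18 differed in the balance of embryonic and adult-type chains. Relative to replicate 2, replicate 1 held 1.63 times the CPM of Hbb-y (95% exact interval 1.59 to 1.67) and 1.37 times that of Hba-x (1.28 to 1.47). The same ratio was 0.814 for Hba-a1 (0.809 to 0.819) and 0.765 for Hbb-b1 (0.761 to 0.769). Hbb-bh1 lay with the adult-type genes at 0.692 (0.626 to 0.764), and so did Hbq1b at 0.709 (0.698 to 0.72) and Hbb-bh2 at 0.637 (0.492 to 0.823). Bcl11a stood at 1.16 (1.11 to 1.2). These are differences between 2 libraries, and the intervals do not cover the spread between animals. The markers of pancreatic acinar cells also differed between the duplicates, with summed levels of 244 and 525 CPM, and their part in the globin ratios was not tested.

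**Figure D3:**
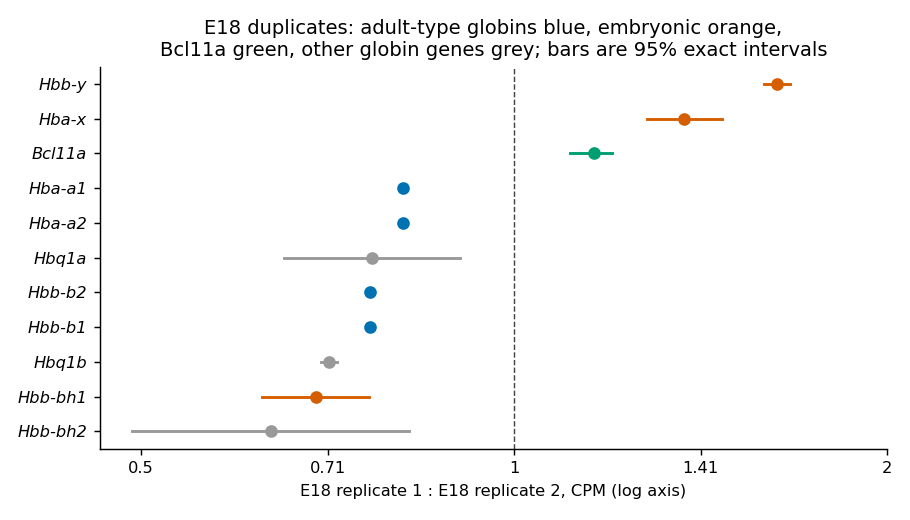
Ratio of CPM in E18 replicate 1 to E18 replicate 2 (log axis, dashed line at 1) for 10 globin genes and Bcl11a, with 95% exact intervals as bars, some smaller than the points. Hbb-y, Hba-x and Bcl11a lie above 1, and the adult-type genes, Hbb-bh1, Hbb-bh2, Hbq1a and Hbq1b lie below 1.

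Within each library, the embryonic share of beta-globin reads compares Hbb-y and Hbb-bh1 with all 4 beta-globin genes and does not depend on scaling between libraries. It was 2.785% and 1.409% in the E18 libraries, 0% and 0.02873% in those of P14, 0.2886% and 0.1% in those of P28 and 0% in both adult ones. The P28 shares rested on 8 and 2 reads, with 4 and 1 on each of Hbb-y and Hbb-bh1. Whether these equal counts come from the same reads was not tested. In adult, 0 of 1062 and 0 of 1420 beta-globin reads were embryonic, which allows shares of up to 0.36% and 0.27% (95% Wilson). These totals count both genes of the adult-type pair, so the limits are too low if the same reads were placed on both. The E18 shares lay above every later share. An exact permutation test over 2520 arrangements of the libraries gave p = 0.019 (adjusted p = 0.057 over 6 measures). It asks whether the 4 stages differ, not whether E18 lies above the rest. Differences among the later stages, which rest on at most 8 reads per library, also enter it. With each adult-type pair counted once, the E18 shares were 5.419% and 2.779%.

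The embryonic share of alpha-globin reads was smaller, 0.6222% and 0.3706% at E18, and it was 0% in every later library except P14 replicate 2, at 0.09634%, which rested on 2 reads. Its change over the stages did not pass the exact permutation test (p = 0.095, adjusted p = 0.14). In libraries with 0 reads on Hba-x, the tested value is set by the 0.5 added to counts and the number of alpha-globin reads. The test therefore cannot decide whether the share differed between the later stages. In adult, the 0 reads on Hba-x allow shares of up to 0.649% in replicate 1 and 0.549% in replicate 2 (95% Wilson). These limits are also too low if the reads of the adult-type pair were placed on both genes. Counted with each pair once, the E18 shares were 1.237% and 0.7385%.

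All 7 globin genes together took 1.053% and 1.282% of the counted reads in the E18 libraries. The P14 libraries gave 0.006546% and 0.005326%, the P28 libraries 0.004385% and 0.003696% and the adult libraries 0.002421% and 0.002828%. Stages did not overlap (exact permutation test, p = 0.0095, the smallest it can give, adjusted p = 0.057). With each pair counted once, the shares at E18 were 0.5368% and 0.6476%.

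The alpha to beta ratio, from summed RPKM, was 0.3514 and 0.3335 for E18, 0.3557 and 0.3287 for P14, 0.2722 and 0.2974 for P28 and 0.3049 and 0.2699 for adults. The 4 libraries of E18 and P14 lay above the 4 of P28 and adult, but the exact permutation test did not separate the stages (p = 0.1, adjusted p = 0.14). Its size depended on the lengths used: the files imply 1118 and 1126 bases for Hba-a1 and Hba-a2, against 699 and 554 for their GENCODE transcripts. With the GENCODE lengths, the ratio was 0.6112 and 0.5884 at E18 and 0.5462 and 0.4835 in adult.

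Bcl11a was highest at E18, together with the embryonic globin genes. It had 5948 and 4526 reads in the E18 libraries, 46 and 42 in those of P14, 6 and 5 in those of P28 and 9 and 10 in those of adults. These counts correspond to 39.9 ± 4.15 CPM (SD, n = 2) at E18, then 0.486 ± 0.0216, 0.0725 ± 0.0036 and, in adults, 0.153 ± 0.00288. It fell by 6.35 on the log2 scale from E18 to P14 (SE 0.15, edgeR adjusted p = 6.3e-09), which is 82.1-fold. It was the only gene of the 8 that passed both thresholds downward from P14 to P28 (log2 fold change -2.72 ± 0.26, edgeR adjusted p = 6.8e-05), a call that was lost with limma on log2(RPKM + 0.1), where the change was -0.53. The step from P28 to adult, 1.06 ± 0.34, did not pass (edgeR adjusted p = 0.16), so P28 and adult, at 5 to 10 reads per library, are not separated.

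Bcl11a is also known from B cells and plasmacytoid dendritic cells. The 14 B-lineage markers summed to 9.88 and 16 CPM in the E18 libraries, 18 and 20.2 in those of P14, 12 and 10.2 in those of P28 and 8.52 and 8.55 in those of adults, with none at 0 at any stage. Of 13 tested, 0 fell and 2 rose from E18 to P14, 7 fell and 0 rose from P14 to P28, and 5 fell and 2 rose from E18 to adult. Of all genes tested, 15.4% were called lower and 13.8% higher from E18 to P14. From P14 to P28 these shares were 5.98% and 3.61%, and from E18 to adult 23.8% and 16.8%. Among the B-lineage markers lower in adult, Rag1 and Igll1, genes of B-cell precursors, had log2 changes of -7.69 and -5.93. The 2 that rose were Dntt, by 5.79, and Ms4a1, by 5.71, both from at most 2 reads per library at E18. The part of B-lineage cells in the Bcl11a reads was not tested. The 8 markers of plasmacytoid dendritic cells summed to 46.3 and 48.3 at E18 and to between 166 and 288 afterwards, mostly from Bst2, which is not specific to these cells. Of 7 tested, 2 rose and 0 fell from E18 to P14.

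The other repressors and corepressors of embryonic globin genes changed less. Of 19 genes, which include the nucleosome remodelling subunits Chd4, Mta2 and Mbd3, 2 fell and 0 rose from E18 to adult, with a median log2 change of -0.82 beside -0.11 over all genes. Of all genes tested, 23.8% were called lower and 16.8% higher in this comparison. These shares also apply to the E18 to adult counts of the lists that follow. Dnmt1, the maintenance DNA methyltransferase, fell by 4.06 (log2, SE 0.1) from 32689 and 30269 reads to 856 and 946. Sox6, a partner of Bcl11a on globin genes, fell by 2.36 (SE 0.11) from 13829 and 13415 reads to 1167 and 1380. Zbtb7a, a repressor that acts beside Bcl11a, stood at -1.22 ± 0.08 and did not reach 3-fold. The rest of the list ranged up to 1.26, the value of the nuclear receptor Nr2f2.

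Transcription factors of red-cell precursors, listed mainly for activating globin genes, mostly fell with the globin genes. Of 15, 13 fell and 0 rose from E18 to adult, with a median of -4.89. Klf1, which binds CACCC boxes, went from 39894 and 45044 reads at E18 to 438 and 415 in adult (log2 fold change -5.57 ± 0.2). Gata1, the master regulator of red-cell formation, went from 21622 and 24692 reads to 4 and 2 (-11.82 ± 0.3). Gfi1b, which is on this list but acts as a repressor, and which red-cell and megakaryocyte maturation needs, went from 11279 and 10600 reads to 1 and 0. Tal1 stood at -8.68 and Myb, a factor of proliferating progenitors, at -8.38 on the log2 scale.

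Of 16 genes for haem synthesis and erythroid iron supply, 12 fell and 0 rose from E18 to adult, with a median of -1.96. Alas2, the erythroid enzyme of the first step of haem synthesis, kept 3116 and 3888 reads in adult, from 157577 and 200610 at E18 (log2 fold change -4.63 ± 0.2). The log2 changes of Tfrc, the transferrin receptor, and Slc25a37, the mitochondrial iron importer mitoferrin, were -5.91 and -5.66. The globin chaperone Ahsp was not analysed here.

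Of 23 genes for proteins of the red-cell membrane and cytoplasm, 21 fell and 0 rose from E18 to adult, with a median of -10.29. Kel, a blood-group antigen, went from 61528 and 61033 reads to 0 and 1. Slc4a1, the band 3 anion exchanger, stood at -14.04 on the log2 scale and Epb4.2, a protein of the membrane skeleton, at -13.96. The 2 genes not called were Car1, with a log2 change of -0.86, and Aqp1, with -1.36. Car1 did fall from E18 to P14 (log2 fold change -4.32, edgeR adjusted p = 4e-07), from 4343 and 2410 reads to 118 and 112. It then had 568 and 638 reads at P28 and 846 and 900 in adult. Aqp1 is a water channel also found outside red cells.

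Genes for clearing haemoglobin and haem moved both ways. Of 7, 4 rose and 2 fell from E18 to adult. Hp, encoding the haemoglobin-binding plasma protein haptoglobin, rose from 5925 and 7819 reads to 141304 and 177738 (5.58 ± 0.22). Cd163, the macrophage receptor for haptoglobin and haemoglobin, rose by 4.48 and the haem-binding protein gene Hpx by 3.63. Hmox1, haem oxygenase, fell by 3.28. All of these changes had an edgeR adjusted p below 0.1 over all genes.

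**Figure D4:**
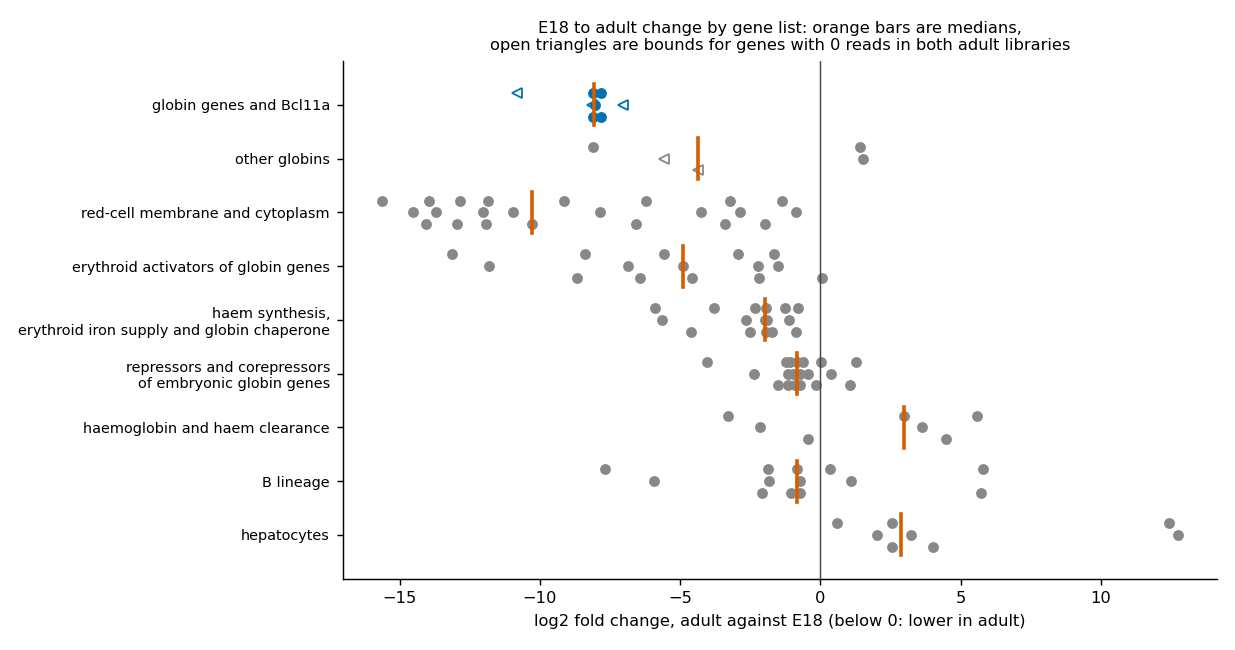
Log2 fold change from E18 to adult for each gene tested in 9 lists, with 1 point per gene, orange bars at the medians and open triangles for bounds of genes with 0 reads in both adult libraries. The 8 globin and Bcl11a values have a median of -8.06, between the red-cell membrane list at -10.29 and the list of mainly activating transcription factors at -4.89.

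Since the red-cell genes did not fall to the same extent, globin reads were set against other genes within each library, which removes the scaling between libraries. The reads of Hba-a1 were 0.385 times those of Slc4a1 in both E18 libraries, 4.18 and 2.36 times in those of P14, 10.4 and 13.5 times in those of P28 and 21 and 26.8 times in those of adults. Against Alas2, the same ratio was 1.12 and 0.953 for E18, 0.424 and 0.401 for P14, 0.173 and 0.136 for P28 and 0.0944 and 0.0895 for adults. Hba-a1 thus became more abundant relative to Slc4a1 and less abundant relative to Alas2, with no overlap between neighbouring stages in either ratio.

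Hbb-b1 showed the same order, with ratios to Slc4a1 from 0.594 and 0.632 at E18 to 37.9 and 54.6 in adult, and to Alas2 from 1.73 and 1.56 to 0.17 and 0.183. Each of these 4 ratios gave p = 0.0095 in the exact permutation test, the smallest it can give, and an adjusted p of 0.019 over 8 ratios that were chosen after their values had been seen. Against Klf1, Hba-a1 fell from 4.42 and 4.24 to 0.671 and 0.839 (exact permutation p = 0.019, adjusted p = 0.025). Against Bcl11a, it was 29.7 and 42.2 at E18, 114 and 108 at P28 and 32.7 and 34.8 in adult (exact permutation p = 0.057). The Slc4a1 and Alas2 reads in adult liver that these ratios use were 14 and 13, and 3116 and 3888.

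**Figure D5:**
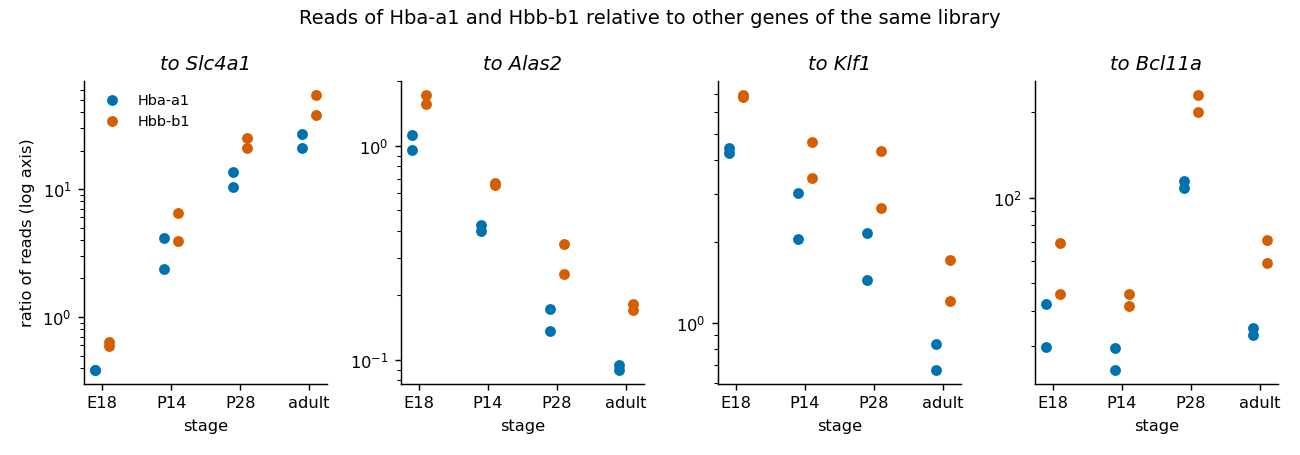
Reads of Hba-a1 (blue) and Hbb-b1 (orange) divided by those of Slc4a1, Alas2, Klf1 and Bcl11a in the same library (log axes with their own ranges), with 1 point per library and stage. The ratios to Slc4a1 rise at every stage, those to Alas2 and Klf1 are highest at E18 and lowest in adult, and that to Bcl11a is highest at P28.

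Of the other genes of the globin superfamily, 5 of 6 passed the filter. Hbq1b went from 29454 and 36632 reads at E18 to 232 and 140 in the P14 libraries, 142 and 157 in those of P28 and 60 and 56 in those of adults, 273-fold lower in adult (log2 fold change -8.1 ± 0.3, edgeR adjusted p = 1.9e-08). Hbq1a, from 278 and 319 reads, was at least 47.7-fold lower in adult, and Hbb-bh2, from 107 and 148 reads, at least 20.5-fold lower. Cygb and Ngb encode cytoglobin and neuroglobin and are not red-cell genes. Cygb rose by 2.36 on the log2 scale from E18 to P14 (SE 0.17, edgeR adjusted p = 1.9e-06), from 503 and 406 reads to 1402 and 1812. Ngb had 19 to 53 reads per library and was not called in any comparison. Mb, which encodes the muscle protein myoglobin, had 77 reads in P14 replicate 2, 1 and 2 reads at E18, 2 in P14 replicate 1 and 0 in the 4 later libraries.

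The genes with the profiles nearest to each member over the 8 libraries were ranked by Euclidean distance of centred log2 CPM. They were sought among all genes tested outside the members, so genes of this set could not appear as neighbours. For Hba-a1 and Hba-a2 they included Cdr2 at 0.52 and Tmcc2 at 0.82. For Hbb-b1 and Hbb-b2 they were Cdr2 at 0.51, Hbq1b at 0.82 and Tmcc2 at 0.96. For Bcl11a, the nearest were Shbg at 1.23, AU015836 at 1.38 and Prkar2b at 1.45.

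The neighbours of the embryonic genes rest on few reads after E18. Hba-x had, among others, Lin28b at 1.26 and Btnl10 at 1.33. Hbb-y had Add2 at 2.14, 9430076G02Rik at 2.14 and Cpa1 at 2.22, and Hbb-bh1 had Cel at 1.46, Igsf1 at 1.63 and Nfe2 at 1.64. Cpa1 and Cel encode digestive enzymes of the pancreas, and Lin28b an RNA-binding protein of fetal blood progenitors. The 12 acinar markers summed to 244 and 525 CPM in the E18 libraries, 36.3 and 36.6 in those of P14, 122 and 125 in those of P28 and 109 and 123 in those of adults, with 7 of 11 lower and 1 higher from E18 to adult. Of the fetal-stage RNA-binding and Hmga genes, 7 of 7 fell, with a median of -6.11, and Lin28b went from 3081 and 3058 reads at E18 to 0 and 0 in adult. Cpa1, Cpb1, Cela3b, Prss2, Ctrb1, Cel and Lin28b passed the filter on low counts only through their E18 libraries. A lower level after E18 was bound to follow for them.

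Markers of some other blood lineages of the fetal liver also fell. From E18 to adult, 9 of 9 granulocyte markers fell, as did 7 of 7 megakaryocyte and platelet markers and 6 of 8 markers of blood stem and progenitor cells, of which 1 rose. Among the progenitor markers that fell, Hoxa9 passed the filter on low counts only through its E18 libraries. Macrophage markers were split, with 2 of 8 higher and 2 lower. Granulocyte markers summed to 178 and 191 CPM at P14 and to 5.79 and 3.8 at P28. In that step 8 of 9 fell, against 5.98% of all genes tested, whereas no adult-type globin gene was called.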

How the data were processed

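Whole-liver RNA-seq was analysed for 8 libraries, 2 each at E18, P14, P28 and adult. Stage and replicate number came from the labels. RNA was isolated with Trizol according to the labels and with the RNeasy kit according to the Methods. The authors selected poly(A) RNA, sequenced 100 bp read pairs, aligned them to genome and transcriptome and deposited raw read counts for 22059 gene symbols. They also deposited RPKM, which they computed from the same counts. The submitters' processing notes name the build mm9, and how reads matching several genes were counted is not given in the sources used here. Dividing counts by RPKM gave 1 length per gene and totals of 73844259 to 112713530 mapped reads.

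Genes were kept with filterByExpr (17081 genes), scaled by TMM and tested with glmQLFit and glmQLFTest of edgeR (4.0.16) in a model with 1 coefficient per stage, by scripts tested on simulated data. A call needed a false discovery rate below 0.1 and over 3-fold. The study gives the first in its Methods, for DESeq. It gives the second with a p threshold from Fisher's exact test, so their combination was set here. Standard errors were taken from the log2 change and its F statistic. Shares and ratios were tested over all 2520 arrangements of the libraries, with an F statistic that has no direction (smallest p 0.0095), on the log2 scale for ratios and as logits with 0.5 added to counts for shares. Intervals were 95% Wilson or exact (scipy 1.17.1), and 3 reads per library were the floor. The members, gene lists and tests were chosen with earlier results of these data known. All members and other globins were named, with at most 4 genes of each further list (largest changes from E18 to adult, besides Alas2, Klf1, Gata1, Zbtb7a and Sox6) and the 3 nearest profiles per member, a few of which are not reported here. The uncalled genes of the red-cell list, Chd4, Mta2, Mbd3, Nr2f2 and Bst2 were named after their values had been seen. So were Rag1, Igll1, Dntt, Ms4a1 and the steps of the granulocyte markers. Alternatives were other scalings and filters, DESeq2 (1.42.0), limma (3.58.1) on log2(RPKM + 0.1), other thresholds, the replicate block, each library left out, and, chosen after seeing the data, each pair counted once and GENCODE lengths. R 4.3.3, Python 3.11.15, pandas 2.3.3, numpy 2.4.6 and matplotlib 3.10.9 were used.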

Additional observations from a re-analysis of the deposited data

How the results depend on the processing

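Of 586 single-gene log2 changes recomputed under 19 alternatives, 580 kept their side of the threshold and 6 lost the call. Of those called in the main fit or in the alternative, 0 changed sign, and uncalled values were not compared for direction. The 8 calls from E18 to P14 and from E18 to adult became 4 in each with at least 10 counts in every sample, since that filter leaves only the 4 adult-type genes to test, and P14 to P28 then gave 0. The 2 calls from P14 to P28 became 1 at a false discovery rate of 0.05, 1 when only the 2 stages were fitted and 0 with limma, where Hbb-bh1 stood at 0.48 (adjusted p = 0.1) and Bcl11a at -0.53 (0.016). Leaving out each library gave 1 to 2 calls there, 8 in both comparisons from E18 and 0 from P28 to adult. Per length by RPKM, the globin share was 2.962% at E18 and 0.006667% in adult, the embryonic alpha share 0.9241%, the Hba-a1 share 50.18% and the Hbb-b1 share 49.35%. With each pair counted once, the globin share was 0.5922% and 0.001312%, the embryonic beta share 4.099% and the embryonic alpha share 0.9876%. The alpha to beta ratio was 0.6191 at E18 and 0.5219 in adult from reads, and 0.5998 and 0.5148 with GENCODE lengths. With the replicate number as a block, the counts of calls were 8, 2, 0 and 8 as before. The pairing of replicate numbers was checked over 8726 genes, where deviations of same-numbered libraries correlated between -0.414 and 0.161 over 6 pairs of stages, so the numbers were not taken to pair the libraries. Hba-x, Hbb-y and Hbb-bh1 after E18, and Bcl11a after P14, had at most 10 reads per library and are limited by counting.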
